A study of Mus musculus with 14 samples.

Results

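Brg1 was mapped by ChIP-seq in mouse pro-B cells that carried EBF1 in its wild-type form (wt) or in a form called dC, and the peaks found with 1 form and not with the other were examined. EBF1 directs the start of B-cell development, and the series title names its C-terminal domain, the CTD, in connection with Brg1. Both cultures were pro-B cells of fetal liver origin, EBF1 fl/fl and C57BL/6, transformed with Abelson murine leukemia virus (A-MuLV). Per the labels, their own EBF1 had been replaced by a form delivered with the construct pMys_EBF1_wt_IRES_GFP or pMys_EBF1_dC_IRES_GFP. The labels do not say which residues dC lacks, nor whether each culture is 1 clone. Brg1 was precipitated with 2.5 µg of an Abcam antibody after crosslinking with EGS and 1% formaldehyde. Each form had 1 library, so no difference between the forms could be tested, and no value below has a replicate error.

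The wt list held 24493 peaks on chromosomes 1 to 19, X and Y, and the dC list held 24420, of 196179 peaks in all lists of the series. A peak was called wt-only or dC-only when no peak of the other list shared at least 1 bp with it. There were 9198 wt-only peaks, which is 37.6% of the wt list (36.95% to 38.16%), and 8406 dC-only peaks, which is 34.4% of the dC list (33.83% to 35.02%). Ranges after a share are exact Clopper-Pearson 95% intervals. They hold for these libraries alone and take in only the error of counting peaks, not the difference between the forms. Sequencing depth is unknown here, so Brg1 may be present where no peak was called.

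Brg1 is the product of Smarca4 and the motor of BAF and PBAF complexes, which slide and evict nucleosomes and so open chromatin at enhancers and promoters. EBF1 acts early in the B lineage, where it binds DNA as a dimer and, with Pax5 and E2A, turns on genes of the pre-B-cell receptor and of B-cell signalling. Pro-B cells rearrange the immunoglobulin heavy chain genes, and cells transformed by the Abelson virus grow on its Abl kinase without the cytokine interleukin 7. Loci of the immunoglobulin light chains open mostly at the next stage.

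Promoter sequences of 4 genes show what lies under one-sided peaks that are close to a gene start. They are 300 bases of RefSeq (GRCm38.p6), 250 before and 50 after the start, given 5′ to 3′ on the strand of the gene. Capitals mark the EBF core, CCCNNGGG, which reads the same on both strands. The promoter of Niban3 (chr8:71597458-71597757, plus strand) is shown because its wt-only peak was the strongest at any promoter. That of Il7r (chr15:9529827-9530126, minus strand) had the strongest wt-only peak at a promoter of the gene lists used below, and has no EBF core in this window. The promoter of Zdhhc7 (chr8:120101423-120101722, minus strand) had the strongest dC-only peak among promoters with an EBF core and an EBF1 dC peak. That of Hhex (chr19:37434591-37434890, plus strand) had the strongest dC-only peak at a promoter of the lists.
Niban3: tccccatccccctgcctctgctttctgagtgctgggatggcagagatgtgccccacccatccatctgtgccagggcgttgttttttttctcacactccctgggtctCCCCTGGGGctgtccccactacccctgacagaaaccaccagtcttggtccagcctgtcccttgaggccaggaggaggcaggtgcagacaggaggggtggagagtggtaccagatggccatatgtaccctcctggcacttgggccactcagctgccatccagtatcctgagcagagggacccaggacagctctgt
Il7r: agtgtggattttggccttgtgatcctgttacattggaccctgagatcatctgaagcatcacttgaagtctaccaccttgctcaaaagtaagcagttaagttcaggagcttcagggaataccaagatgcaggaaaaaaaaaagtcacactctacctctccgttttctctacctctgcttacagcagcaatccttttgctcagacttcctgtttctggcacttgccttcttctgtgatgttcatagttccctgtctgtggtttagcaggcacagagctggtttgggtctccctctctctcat
Zdhhc7: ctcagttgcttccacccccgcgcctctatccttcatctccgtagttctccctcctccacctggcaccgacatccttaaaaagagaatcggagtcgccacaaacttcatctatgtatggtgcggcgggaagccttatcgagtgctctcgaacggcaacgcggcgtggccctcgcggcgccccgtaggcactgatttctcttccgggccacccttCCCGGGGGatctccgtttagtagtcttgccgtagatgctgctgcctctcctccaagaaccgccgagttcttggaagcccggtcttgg
Hhex: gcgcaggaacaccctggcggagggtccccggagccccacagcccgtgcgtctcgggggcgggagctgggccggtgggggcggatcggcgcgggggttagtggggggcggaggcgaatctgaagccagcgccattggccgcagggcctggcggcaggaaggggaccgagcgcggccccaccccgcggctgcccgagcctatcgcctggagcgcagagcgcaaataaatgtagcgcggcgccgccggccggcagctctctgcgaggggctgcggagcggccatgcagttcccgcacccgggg

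Niban3 had a wt-only peak with a fold enrichment of 19.2. Its summit lay at position -740 from the gene start, outside the bases shown, which are a part of the peak away from the summit. Fold enrichment is the authors' value for each peak, the pileup at the summit over the local background, and serves here to rank and describe peaks within 1 list. The Niban3 promoter has 2 overlapping matches to the EBF core, the first at position -144 from the start, and overlapped an EBF1 peak with each form. Il7r, which encodes the interleukin 7 receptor alpha chain, had a wt-only peak of fold 8.31 at its promoter, where neither EBF1 list had a peak. The summit lay at position -52 from the start. Hhex encodes a homeobox factor of haematopoietic progenitors, and its promoter had a dC-only peak of fold 8.63 and an EBF1 dC peak. The dC-only peak at the Zdhhc7 promoter had a fold of 8.29, and the EBF core lies at position -37. Zdhhc7 encodes a palmitoyltransferase.

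These promoters are a few cases of a rare kind. The RefSeq table gives promoters of 17492 of the 21887 protein-coding genes, none of them on chromosome 18. Of 21238 distinct promoters, 768 had wt-only peaks and 572 dC-only peaks, while 6959 had a peak called with both forms. The EBF core stood in 15.0% of the promoters with wt-only peaks (12.52% to 17.7%), in 18.4% of those with dC-only peaks (15.27% to 21.78%) and in 15.6% of all. With T before it and A after it, the core stood in 0.912% of the wt-only promoters, 0.699% of the dC-only ones and 0.961% of all, and for both forms of the motif the share over all promoters lay within the interval of each one-sided class. The core stood in 19.1% of the promoters called with both forms (18.22% to 20.09%) and in 13.6% of those without a peak (13.05% to 14.24%). The ETS motif CCGGAAGT, counted on both strands, stood in 9.90% and 7.17% of the wt-only and dC-only promoters, against 11.6% of those called with both forms and 1.29% of those without a peak. No genome of this build was given, so sequence under peaks away from gene starts is not shown.

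One-sided peaks were weaker and narrower than the rest of their own list. Wt-only peaks had a median fold of 4.83 and a median width of 259 bp, against 6.05 and 521 bp for wt peaks that were also called with dC. In the dC list the medians were 4.49 and 246 bp for dC-only peaks, and the median fold of the other peaks was 5.53. Both classes had strong members: 257 wt-only peaks reached a fold of 10 and 66 a fold of 15, and 73 and 5 dC-only peaks did. Among peaks called with both forms, the wt list likewise had more at these folds, 1410 and 314, against 909 and 150 in the dC list. Many one-sided peaks lay close to a peak of the other list: 37.1% of the wt-only and 31.3% of the dC-only peaks had one within 1 kb. At the border of the rule, 421 wt peaks shared 1 to 50 bp with a dC peak and 379 lay within 50 bp of one without touching it, and both sets had a median fold of 4.53. In the dC list these sets numbered 438 and 340, with medians of 4.44 and 4.32.

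**Figure D1:**
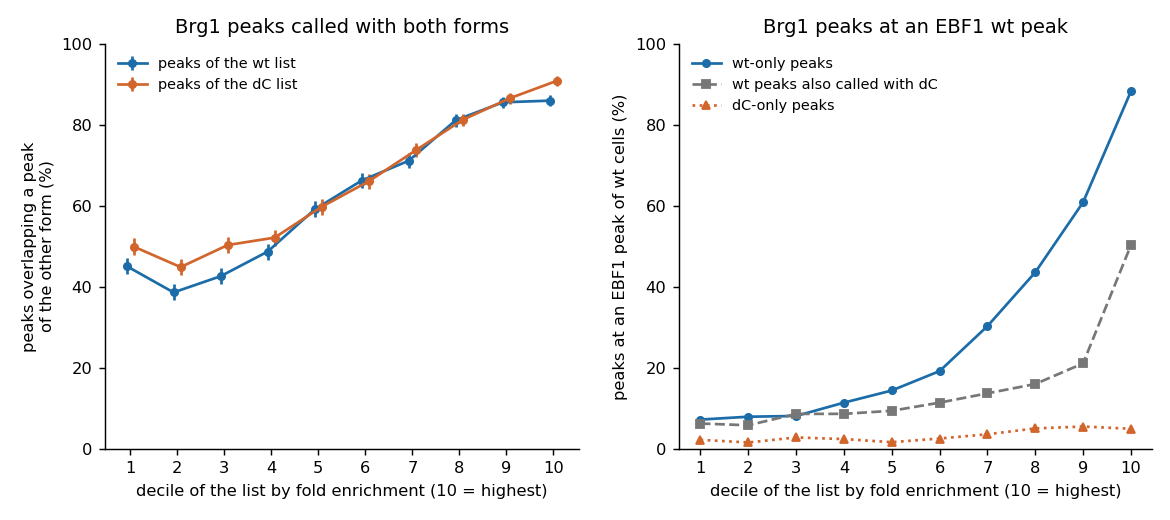
Brg1 peaks of A-MuLV cells in deciles of each list by fold enrichment, 1 library per form. Left, the percent of peaks that overlap a peak of the other form, with exact 95% intervals (bars): wt peaks stand at 45.1% in the lowest decile, 38.6% in the second and 86.0% in the highest, and dC peaks at 50.0%, 44.9% and 90.9%. Right, the percent that overlap an EBF1 peak of wt cells: in the highest decile 88.3% of wt-only peaks and 4.95% of dC-only peaks do.

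Strong Brg1 peaks were called with the other form more often than weak ones. The share of wt peaks called with dC was 45.1% in the lowest decile by fold, 38.6% in the second, 42.6% in the third and then higher in each decile up to 86.0% in the highest, above a fold of 9.07. In the dC list it was 50.0% in the lowest, 44.9% in the second and 90.9% in the highest, which starts at 8.02. The peaks that remained one-sided at high fold differed in how often they lay at EBF1 peaks of wt cells. Of the 343 wt-only peaks in the highest decile, 88.3% overlapped an EBF1 peak of wt cells, against 50.3% of the wt peaks of that decile that were called with both forms. Of the 222 dC-only peaks in the highest decile, 4.95% overlapped an EBF1 wt peak, against 35.2% of the dC peaks of that decile called with both forms. EBF1 dC peaks lay at 46.6% of the wt-only and 44.1% of the dC-only peaks of the highest deciles, and at 59.9% and 53.4% of the peaks there called with both forms.

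EBF1 peaks of wt cells were far more common at wt-only than at dC-only Brg1 peaks. EBF1 was mapped in cells of the same 2 kinds, with formaldehyde and no EGS, and its lists held 6155 (wt) and 11147 (dC) peaks. An EBF1 wt peak overlapped 18.6% of wt-only Brg1 peaks (17.79% to 19.39%), 17.6% of wt peaks called with dC and 2.64% of dC-only peaks (2.309% to 3.007%). The last share was 4.95% with a −log10 q of at least 5 and 7.93% with 10000 peaks per list, where that of wt-only peaks was 34.7%. Seen from EBF1, 27.7% of its wt peaks overlapped a wt-only Brg1 peak and 3.59% a dC-only one. An EBF1 dC peak overlapped 14.9% of wt-only, 28.1% of shared and 11.5% of dC-only peaks, which came to 12.1% and 8.60% of the EBF1 dC list for the one-sided classes. EBF1 peaks found with wt alone overlapped 7.65% of the wt-only Brg1 peaks and 0.588% of the shared ones. Most one-sided peaks lay at no EBF1 peak of either form, 77.5% of the wt-only and 88.4% of the dC-only.

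**Figure D2:**
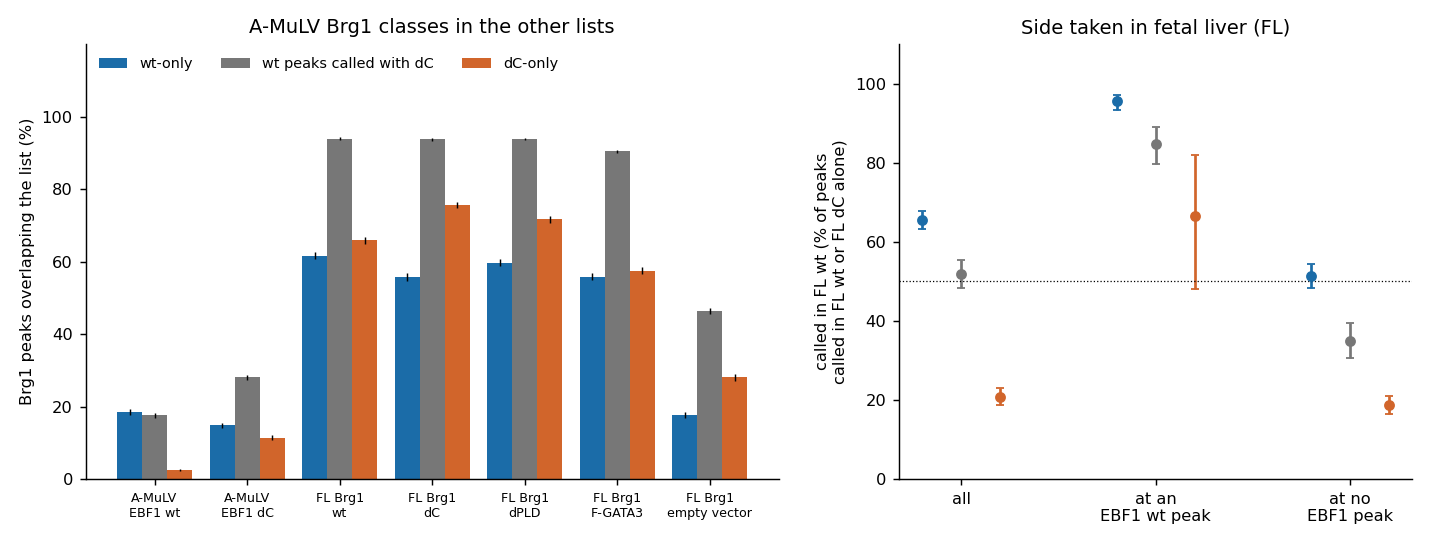
Left, percent of A-MuLV Brg1 peaks in 3 classes that overlap a peak of each other list (FL, fetal liver), with exact 95% intervals. Right, among peaks called in 1 of the fetal liver wt and dC lists and not in the other, the percent called with wt, with the same intervals and a dotted line at 50: wt-only peaks at an EBF1 wt peak stand at 95.5%, those at no EBF1 peak at 51.4%, and dC-only peaks at no EBF1 peak at 18.8%.

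The same 2 forms of EBF1 were compared in fetal liver, which the classes above did not use. Those cells were EBF1 -/- c-kit-positive progenitors transduced with EBF1 wt, dC, dPLD or F-GATA3 or with an empty vector and grown on OP9 stroma, crosslinked with EGS and 2% formaldehyde, again with 1 Brg1 library each. Of the wt-only A-MuLV peaks, 61.7% were called in fetal liver wt and 55.8% in fetal liver dC, and of the dC-only peaks 65.9% and 75.7%. In each class, more than 50% of the peaks were thus called in fetal liver with the form that had none there in A-MuLV cells. Peaks called with both forms in A-MuLV cells reached 93.95% and 93.75%. The empty vector list, from cells without EBF1, overlapped 17.8% of wt-only, 28.2% of dC-only and 46.5% of shared peaks.

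Where fetal liver had the peak with 1 form alone, the side taken differed with EBF1. Among wt-only peaks, 1135 were called in fetal liver wt and not dC, and 596 in dC and not wt, so 65.6% took the wt side (63.28% to 67.81%). At EBF1 wt peaks the counts were 507 and 24, or 95.5% (93.35% to 97.08%). Shared wt peaks at EBF1 wt peaks also took the wt side more often, with 210 against 38 (84.7%, 79.58% to 88.92%). For dC-only peaks there the counts were 22 and 11 (66.7%, 48.17% to 82.04%), an interval that includes an even split. Of the wt-only peaks at an EBF1 peak of wt and none of dC, 203 took the wt side and 2 the dC side. At wt-only peaks without any EBF1 peak the counts were 583 and 552, or 51.4% (48.41% to 54.31%), an interval that includes an even split. This value was higher under 3 other settings, whose intervals lay above an even split: 56.1% (51.74% to 60.41%) with a −log10 q of at least 5, 59.8% (52.32% to 66.93%) with 10000 peaks per list and 60.1% (56.41% to 63.73%) with a peak within 1 kb counted as shared. Shared peaks without EBF1 stood lower, at 35.0% (30.73% to 39.5%), and dC-only peaks without EBF1 at 18.8% (16.65% to 21.11%), with 230 against 993. Over all dC-only peaks the counts were 292 and 1112. Among the 10000 wt peaks with the lowest p-value, set against the whole dC list, wt-only peaks without EBF1 stood at 68.9% (82 against 37), a setting chosen after seeing the data.

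One-sided peaks lay away from gene starts. A promoter of the table was overlapped by 9.67% of wt-only and 8.69% of dC-only peaks, against 39.1% of the shared wt peaks, with chromosome 18 left out. Gene bodies held 56.3% of the wt-only, 58.7% of the dC-only and 73.9% of the shared wt peaks. More than 50 kb from any protein-coding gene lay 12.7%, 8.68% and 5.75%.

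**Figure D3:**
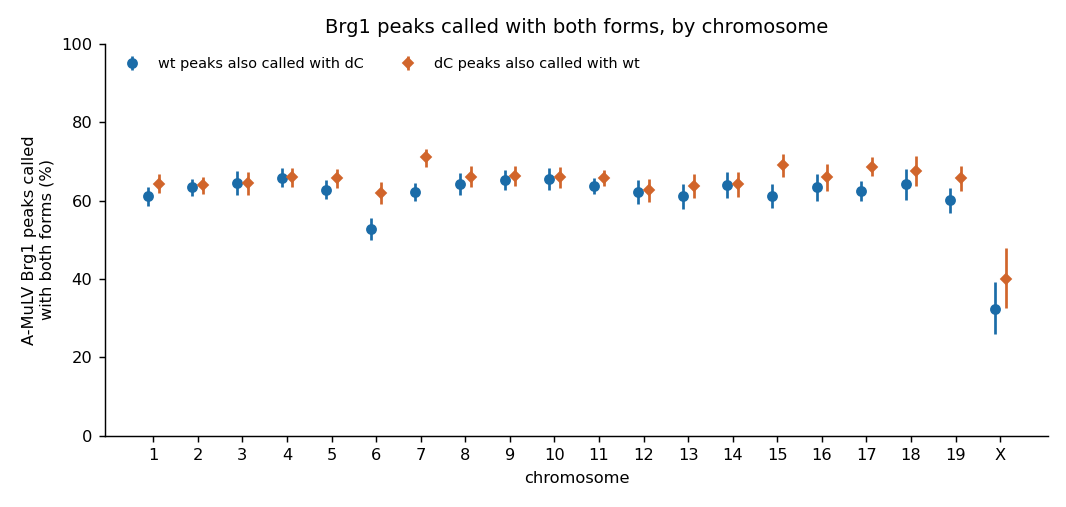
Percent of A-MuLV Brg1 peaks called with both forms on each chromosome (Y left out), 1 library per form, with exact 95% intervals. The X chromosome stands at 32.4% (wt list) and 40.1% (dC list), below every autosome, and chromosome 6 is the lowest autosome in both lists.

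The X chromosome carried few peaks and shared the smallest part of them. Of 210 wt peaks on X, 32.4% (26.1% to 39.16%) were called with dC, against 62.7% on the autosomes, where the range was 52.8% on chromosome 6 to 65.9% on chromosome 4. Of 172 dC peaks on X, 40.1% (32.73% to 47.85%) were called with wt, against 65.8% on the autosomes, with a range of 61.9% to 71.0%. The median fold of the wt peaks was 5.03 on X and 5.45 on the autosomes, and that of the dC peaks 4.49 and 5.13. Fetal liver did not show this: 81.8% of its wt peaks on X were called with dC, and 83.7% on the autosomes. Chromosome 6 holds the immunoglobulin kappa locus, described below. The labels give neither the sex of the cultures nor their number of X chromosomes.

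The 15 strongest wt-only peaks, 1 per nearest gene, ranged in fold from 23.3 to 35.3, and each of them overlapped an EBF1 wt peak. Of these, 13 overlapped an EBF1 dC peak as well, whereas over all wt-only peaks EBF1 peaks of both forms lay at 10.9%. Rptor, which encodes the raptor subunit of mTOR complex 1, had a peak of fold 25.7 inside the gene (chr11:119880208-119880645). Xrcc1, which encodes a scaffold of DNA single-strand break repair, had one of 24.6 (chr7:24562346-24562916). Both places had EBF1 peaks of both forms. Panx1, which encodes a membrane channel, had a peak of fold 23.3 (chr9:15029736-15030495) where EBF1 was called with wt and not with dC. Adgrv1, an adhesion receptor gene, had one of 24.0 and EBF1 peaks of both forms. Of the 15, 7 were called in fetal liver wt, 3 in fetal liver dC and 0 with the empty vector. The 3 are the peaks near Dab2ip and in Ttll11, and the strongest one, fold 35.3 (chr6:68883848-68884806), which lies in the kappa locus.

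The 15 strongest dC-only peaks, again 1 per nearest gene, ranged from 12.4 to 18.3, and none overlapped an EBF1 wt peak. An EBF1 dC peak lay at 10 of them, 13 were called in fetal liver dC, 10 in fetal liver wt and 7 with the empty vector. Cbfa2t3, which encodes a corepressor of blood progenitors, had a peak of fold 17.5 inside the gene (chr8:122664220-122666230) with no EBF1 peak, and all 5 fetal liver lists had a peak there. The peak near Odf1 (fold 14.4, chr15:38176199-38176806) overlapped an EBF1 dC peak, and in fetal liver it was called with dC and dPLD and not with wt. The peaks near Cacna1b (17.6) and Topaz1 (14.2) likewise overlapped an EBF1 dC peak and were called in fetal liver dC and not wt. The one near Cacna1b was also called with the empty vector (fold 6.42), which those near Odf1 and Topaz1 were not. Those near Chd7 (13.5), which encodes a chromatin remodeller, and in Ttll5 (13.3) overlapped an EBF1 dC peak and no fetal liver peak. Plb1 (13.8) and Tmeff2 (14.9) had peaks inside the gene at no EBF1 peak.

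Genes were then counted as having a one-sided peak when one lay in the gene body extended by 10 kb. Over all 21887 protein-coding genes, 46.3% had a peak called with both forms, 25.8% had a wt-only and 24.3% a dC-only peak, 14.4% had wt-only and no dC-only peaks, and 12.8% the reverse. Genes that also had a peak called with both forms reached 42.9% and 39.9%, so one-sided peaks were more common near genes with shared peaks. Each list below is described by its counts against these shares, with no test, and a peak near 2 neighbouring genes is counted with each. The shares were not adjusted for gene length, and a longer gene offers more room for a peak. The median length was 17169 bp over all genes and 84871 bp in the list of B-lineage transcription factors. In the pre-B-cell receptor list it was 12352 bp.

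**Figure D4:**
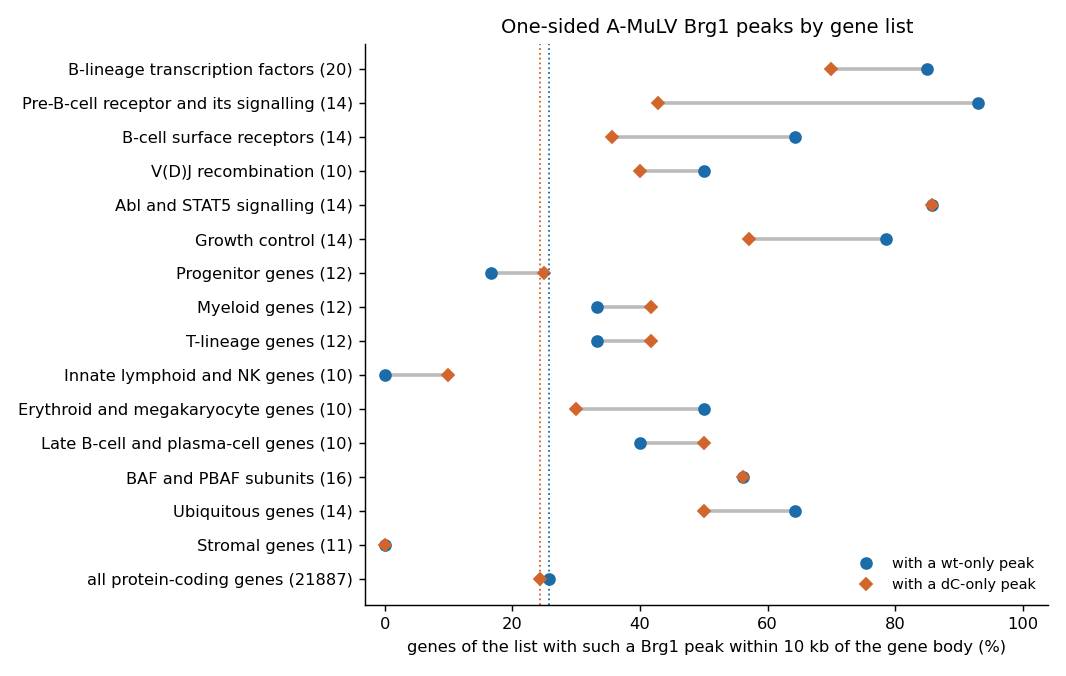
Percent of the genes of each list (number of genes in parentheses) with a wt-only (circles) or dC-only (diamonds) A-MuLV Brg1 peak within 10 kb of the gene body, 1 library per form. Dotted lines give the shares over all protein-coding genes, 25.8% and 24.3%: pre-B-cell receptor genes stand at 92.9% and 42.9%, and stromal genes at 0 on both sides.

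Pre-B-cell receptor genes had wt-only peaks more often than dC-only ones, by the widest margin of the 3 lists of B-cell genes. This receptor pairs a heavy chain with a surrogate light chain, made from Igll1 and the Vpreb genes, and signals through Cd79a and Cd79b. Of 14 genes, 13 had a wt-only peak and 6 a dC-only peak, 7 had wt-only peaks without dC-only ones and 0 the reverse, with 39 and 12 peaks in all. With 10000 peaks per list the counts of genes were 8 and 4, and with 10000 wt peaks against the whole dC list, a setting chosen after seeing the data, 6 genes had a wt-only peak. Cd79b had 6 wt-only and 2 dC-only peaks, and its strongest wt-only peak had a fold of 7.41. Igll1 had 5 and 1, Vpreb1 3 and 0, Vpreb2 4 and 0 and Vpreb3, a related gene, 4 and 0. Igll1 and Vpreb1 are neighbours and can share peaks. Of the 14 genes, 13 also had a peak called with both forms, and Blk had none. The strongest shared wt peak had a fold of 36.1 near Igll1 and Vpreb1, 20.6 near Vpreb2, 15.1 near Vpreb3 and 12.1 near Cd79b. The strongest wt-only peaks were weaker, with folds of 6.26 (Igll1), 4.91 (Vpreb1), 6.34 (Vpreb2), 5.75 (Vpreb3) and 7.41 (Cd79b). Lyn, a Src-family kinase of the receptor, had 2 wt-only peaks, the stronger of fold 9.82, and no dC-only peak. Ptpn6, which encodes the phosphatase SHP-1, had a wt-only peak of fold 8.31 among 5. Cd79a went the other way, with 3 wt-only and 4 dC-only peaks. Syk had neither, and its 4 peaks in each list were all shared. None of the strongest wt-only peaks of these genes lay at an EBF1 wt peak, and those at Lyn and Ptpn6 lay at an EBF1 dC peak. Those at Lyn, Ptpn6, Cd79a, Cd79b, Vpreb1 and Vpreb3 were called in fetal liver with both forms.

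Transcription factor genes of the B lineage had one-sided peaks on both sides. Of 20, 17 had a wt-only and 14 a dC-only peak, 80 and 64 peaks in all, and all 20 had a peak called with both forms. Some genes leaned to wt. Ikzf3, which encodes the lymphoid factor Aiolos, had 13 wt-only and 0 dC-only peaks, the strongest of fold 15.1 (chr11:98537503-98537950) at an EBF1 wt peak. Pou2f2, which encodes Oct-2, had 7 and 0, the strongest of fold 10.2 at EBF1 peaks of both forms. Myb, which encodes a proto-oncogene factor of progenitors, had 4 and 0. Ebf1 itself had 15 and 7, with 11 wt peaks shared, and Pax5, which encodes a factor of B-cell commitment, 6 and 2. At Ebf1 the peaks do not check the labels, since the form that replaced the cells' own EBF1 was delivered with a construct.

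Other factor genes leaned to dC. Erg, which encodes an ETS factor of blood stem cells and early B cells, had 0 wt-only and 9 dC-only peaks, the strongest of fold 14.3 (chr16:95405214-95406062) at an EBF1 dC peak. Runx1, which encodes a core factor of blood development, had 2 and 11. Bach2, which encodes a transcriptional repressor of B cells, had 1 and 10, the strongest of fold 10.5 at EBF1 peaks of both forms. Ikzf1, which encodes Ikaros, had 3 and 9, the strongest of fold 10.1 where EBF1 had no peak. Mef2c, a MADS-box factor gene, had 0 and 6. In fetal liver, Erg had 11 Brg1 peaks with wt and 15 with dC, Runx1 10 and 14, Bach2 8 and 14 and Mef2c 7 and 11, while Ikzf1 had 11 and 8. At Ikzf3 fetal liver had 9 and 7, at Pou2f2 8 and 6, at Myb 3 and 3 and at Ebf1 13 and 13.

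Surface receptor genes of B cells leaned to wt in number: 9 of 14 had a wt-only and 5 a dC-only peak, with 24 and 7 peaks. Bst1, which encodes a surface enzyme also called CD157, had 6 and 1, and Cd38 had 4 and 0, the strongest of fold 6.05. Ptprc, which encodes CD45, and Cd53 had 3 and 0 each. Cxcr5 had a single Brg1 peak, wt-only, of fold 5.29 at EBF1 peaks of both forms. Fcrla and Cr2 had 0 and 1.

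Of 10 genes of V(D)J recombination, 5 had a wt-only and 4 a dC-only peak. Rag1, which encodes a subunit of the recombinase, had no wt peak and 2 dC-only peaks, the stronger of fold 6.38, and Rag2 had 0 and 1. Dntt, which encodes terminal transferase, had 1 and 3, the strongest dC-only peak having a fold of 5.92. Xrcc6, which encodes the Ku70 subunit of end joining, had 5 and 0, with folds up to 5.22. In fetal liver, Rag1 had 1 Brg1 peak with each form, and Rag2 3 with each.

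The 14 genes of Abl and STAT5 signalling, the pathway of transformation here, had one-sided peaks at 12 genes in each direction, with 32 wt-only and 26 dC-only peaks. Socs3, a feedback inhibitor of JAK kinases, had 6 and 1, the strongest of fold 10.8. Stat5b had 5 and 5, and its strongest dC-only peak, of fold 9.67, is also that of its neighbour Stat5a. Abl1 had 1 and 4, and Bcl2l1, which encodes the survival factor Bcl-xL, 2 and 3. Growth control genes had 11 of 14 and 8 of 14, with 26 peaks on each side. Cdk6, which encodes a cell cycle kinase, had 3 and 5, the strongest dC-only peak of fold 8.57. Ccnd3, which encodes cyclin D3, had 9 and 10, and Ccnd2 had no peak with either form.

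BAF and PBAF subunit genes had 9 of 16 in each direction, with 23 wt-only and 17 dC-only peaks. Smarca4 had 8 wt-only and 2 dC-only peaks, the strongest wt-only one of fold 4.96, with 5 wt peaks shared. Pbrm1, which encodes a PBAF subunit, had 3 and 0, the strongest of fold 9.68 at an EBF1 wt peak, and Dpf2 had 1 and 0, of fold 8.18. Ubiquitous genes, listed as a control, had 9 of 14 and 7 of 14, led by Eef1a1 (3 and 0, fold 7.56), so the B-cell lists do not stand alone above the share over all genes.

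Genes of other cell types, listed to check the label, ranged from no peak at all to shares above those over all genes. None of 11 stromal genes had an A-MuLV Brg1 peak of any class. Among innate lymphoid and NK genes, 0 of 10 had a wt-only and 1 (Rora) a dC-only peak. Cd3e, Cd8a, Gata3 and Bcl11b of the T-lineage list, and Cebpa and Mpo of the myeloid list, had no peak with either form, while each of these lists had 4 and 5 of 12 genes with one-sided peaks. Il2ra, which encodes an interleukin 2 receptor chain, had 6 and 1, and Lyz2, which encodes lysozyme, 0 and 3. In the erythroid and megakaryocyte list, 5 and 3 of 10 had one-sided peaks, led by Nfe2 (7 and 1), and in the late B-cell list 4 and 5 of 10, with Jchain at 5 and 0. Among progenitor genes, 2 and 3 of 12 did. Brg1 peaks are not expression, and their bearing on the cells' identity was not tested.

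In the progenitor list one-sided peaks lay near Il7r, Tal1, Hhex and Flt3, and the first 3 had no peak called with both forms. Il7r had 7 wt-only peaks and no dC peak, and no EBF1 peak of either form within 10 kb. Tal1, which encodes a stem cell factor, and Hhex each had 4 dC-only peaks and no wt peak. In fetal liver Il7r and Hhex had 2 Brg1 peaks with each form, and Tal1 had 1 with wt and 2 with dC, so the 1-sided pattern of A-MuLV cells at Il7r and Hhex was not seen there. Only 2 of the 7 Il7r peaks reached a −log10 q of 5.

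**Figure D5:**
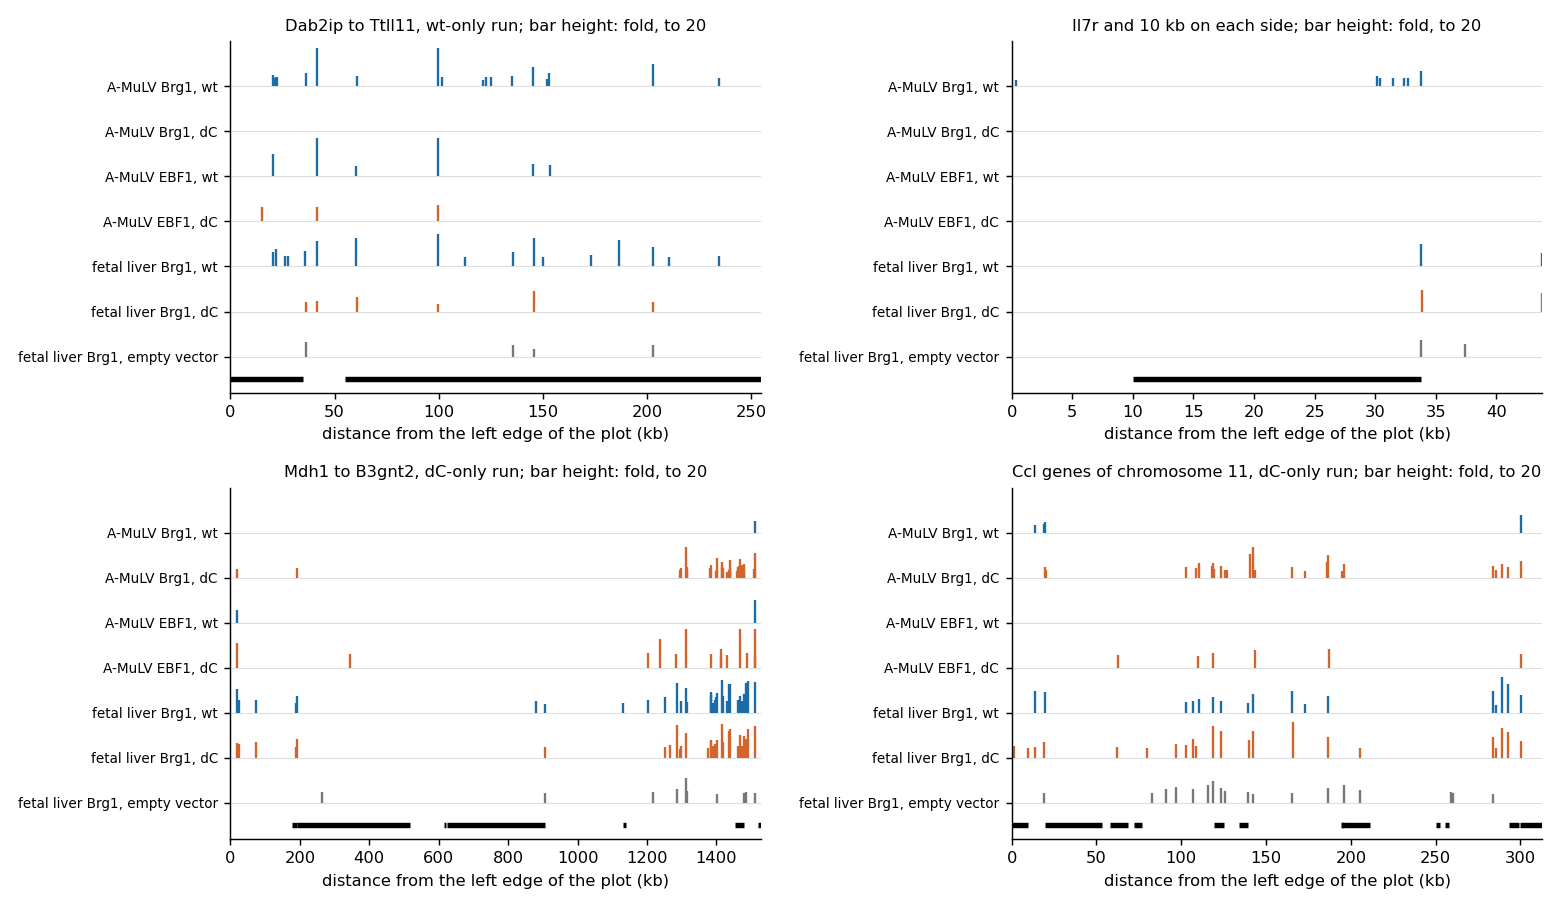
Brg1 and EBF1 peaks at 4 loci, 1 library per row. Sticks mark peak summits, their height is the fold enrichment (heights stop at 20), the horizontal axis is distance in kb from the left edge, and black bars are protein-coding genes. Runs are drawn with 20 kb on each side: the row of A-MuLV dC is empty at Dab2ip to Ttll11 and at Il7r, and the row of A-MuLV wt is empty along the Mdh1 to B3gnt2 and Ccl runs except in those margins.

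Some genes carried many peaks of 1 class and none of the other. These counts were not adjusted for gene length, which ranged widely, from 913078 bp at Wwox to 5720 bp at Ccl9. On the wt side Galnt14, which encodes a glycosyltransferase, had 14 wt-only peaks, followed by Ikzf3 with 13, Gramd4 and Ttll11 with 12, Col26a1 with 11, Sgip1, Syndig1l and Tedc1 with 10 and Drc7 with 9. Col26a1, a collagen gene, had 10 EBF1 wt and 8 EBF1 dC peaks, and in fetal liver 8 Brg1 peaks with wt and 3 with dC. Ttll11 had 12 and 5 in fetal liver. Galnt14 had 4 and 5, and Sgip1 0 and 0. The strongest wt-only peaks of Gramd4, Ttll11 and Col26a1, with folds of 7.07, 24.8 and 14.0, each lay at an EBF1 wt peak, and that of Galnt14, with 9.60, did not. On the dC side Hivep3, a zinc finger gene, had 14 dC-only peaks, B3gnt2 13, Fbxl17 12, Erg and Srgap2 9, and Ccl9, Efna5, Specc1, Ubac2 and Wwox 8. Hivep3 had 14 Brg1 peaks in fetal liver wt and 22 in dC, and 2 EBF1 wt and 10 EBF1 dC peaks. Specc1 had 7 and 10 in fetal liver, and Efna5, which encodes an ephrin ligand, 0 and 0.

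One-sided peaks also followed each other in runs, unbroken by a peak of another class. The wt-only peaks formed 5756 runs, of which 155 had 5 or more peaks and 14 had 10 or more. These runs of 5 or more held 12.0% of the wt-only peaks. The dC-only peaks formed 5403 runs, 132 with 5 or more peaks and 13 with 10 or more, holding 10.7%. Outside the kappa locus, the longest wt-only runs had 18 peaks. The first went from near Dab2ip into Ttll11 over 215 kb of chromosome 2, with folds up to 28.7, and 6 of its peaks lay at EBF1 wt. Of the 18, 11 were called in fetal liver wt and 6 in dC. The other spanned 1420 kb of chromosome 4 around Fsd1l, Tal2, Tmem38b and Zfp462, with 7 at EBF1 wt and 0 at EBF1 dC, and 12 called in fetal liver wt and 2 in dC. A run of 16 on chromosome 6, next to the kappa locus, around Serbp1, Il12rb2 and Il23r, had 10 at EBF1 wt, 13 in fetal liver wt and 3 in dC. In contrast, of the 13 peaks of the Ikzf3 run 9 were called in fetal liver wt and 10 in dC, and of 13 at Thrb, which encodes a thyroid hormone receptor, 8 and 7.

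The longest dC-only run had 34 peaks over 1490 kb of chromosome 11, from Mdh1 to B3gnt2, without a wt peak. B3gnt2, which encodes an enzyme that extends lactosamine chains, had 13 of them near it, and the strongest of the run had a fold of 16.2. Fetal liver had Brg1 peaks there with both forms, at 28 of the 34 with wt and 30 with dC, unlike A-MuLV cells. Of the 34, 6 lay at an EBF1 dC peak and 1 at an EBF1 wt peak. The second run, of 25 peaks over 273 kb of the same chromosome, covered the chemokine genes Ccl5, Ccl9, Ccl6, Ccl3 and Ccl4 with Taf15, Heatr9, Wfdc17 and Wfdc18. Of its peaks 16 were called in fetal liver wt, 18 in dC and 13 with the empty vector, and 0 lay at EBF1 wt. Its strongest peak, near Ccl6, had a fold of 15.9 (chr11:83595674-83596559). The next runs lay at Fbxl17 (13), around Klf7 (12), around Tnfsf11 (12), which encodes the ligand RANKL, and around Emp1 (11), then at Hivep3, Mrc1, Pde4d and St6galnac3 (10 each). None of these 8 had more than 2 peaks at EBF1 wt, and 7 of them had at least as many peaks in fetal liver dC as in wt, the one at Fbxl17 being the exception.

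Gene clusters were read from the first to the last gene of a family. Of 65 clusters, 22 had 5 or more one-sided peaks, and 14 of these had more wt-only and 5 more dC-only peaks. Some clusters overlap, as the Ifi200 genes and the olfactory receptor genes of chromosome 1 do, and their peaks are counted in each. The kappa locus led, with 182 wt-only, 2 dC-only and 13 shared peaks. Its wt-only peaks are 1.98% of all wt-only peaks, and 54.4% of them lay within 1 kb of a V gene (46.86% to 61.78%). No share of the locus within 1 kb of a V gene was set beside this, so it does not show a preference for V genes. In fetal liver 110 of the 182 were called with wt and 20 with dC. The lambda light chain locus had 11 wt-only, 0 dC-only and 2 shared peaks, but its fetal liver lists had 10 and 9 peaks. The heavy chain locus leaned slightly to dC, with 66 and 83, and 106 shared.

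Several other clusters had more wt-only than dC-only peaks, though not the MHC class II genes, with 14 and 14, or the Fc receptor-like genes on chromosome 3, with 4 and 4. The Ms4a cluster, which holds the gene of CD20, had 21 wt-only and 5 dC-only peaks, and fetal liver 17 with wt and 6 with dC. The Ly6 cluster of chromosome 15 had 17 and 3, with 16 and 14 in fetal liver, and the Klr receptor cluster 39 and 20, with 64 and 77. The Fc receptor-like and Slamf genes of chromosome 1 had 33 and 20, with 84 and 101. The Ccl genes from Ccl5 onward, within the run above, had 0 and 20. The histone gene clusters of chromosome 13 had 9 and 11 and, in a second group, 17 and 15. The Hoxa and Hoxb clusters had no A-MuLV Brg1 peak.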

How the data were processed

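Brg1 ChIP-seq peak lists of 2 A-MuLV cultures were compared, and 2 EBF1 and 5 fetal liver Brg1 lists were set beside them. The submitters' processing notes list MACS2 2.1.2, deepTools 3.3.1, SAMtools 1.9 and Bowtie2 2.3.3.1, and GRCm38 as the build. Each deposited list gives positions and, per peak, the authors' fold enrichment (a ratio of pileup to background), the authors' −log10 values of p and q, and a score that is 10 times the deposited −log10 q without its decimals. These meanings come from the peak format and were checked on the values. Threshold, duplicate handling and choice of input are not given in the labels. The lowest −log10 q was 1.37 (wt) and 1.33 (dC), and 63 and 53 peaks on other sequences were left out. Depth is unknown. The background pileup, solved from fold and −log10 p, was 1.74 (wt) and 2.01 (dC), and the median summit pileup 15.0 in both.

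Overlap meant at least 1 bp, and its computation was checked on simulated intervals. Genes and promoters came from RefSeq tables of GRCm38.p6. Gene clusters were split where genes lay over 1 Mb apart and kept from 3 genes up, a rule made after the first intervals were seen to span chromosomes. Intervals came from scipy 1.17.1. No test was made, with 1 library per group. The members and the 15 gene lists were chosen with earlier results of these data known. Named genes are, per class, those of the 15 strongest peaks, up to 4 per list by fold, the 10 with most peaks, those of the 10 longest runs and clusters with 5 or more one-sided peaks, with Ebf1, Smarca4, Ikzf3 and Pax5. Other list members were named after their values were seen, and a few genes the rule names are not reported here. Settings tried were a −log10 q of 5 or more, 10000 peaks per list, an overlap of 50% of the shorter peak, a peak within 1 kb, genes extended by 50 kb, and no kappa locus. Setting 10000 peaks of 1 list against the whole other list was added after seeing the data.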

Additional observations from a re-analysis of the deposited data

Results flagged for a closer look

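With 1 library per group, a difference in direction between A-MuLV cells and fetal liver could be seen but not tested. Among the 42 named clusters and genes with many one-sided peaks, 8 had at least 1.25 times more Brg1 peaks with 1 form in A-MuLV cells and at least 1.25 times more with the other form in fetal liver. The T-cell receptor alpha and delta locus had 36 peaks with wt and 26 with dC in A-MuLV cells, and 20 and 39 in fetal liver, where the empty vector list had 44. The Ifi200 cluster had 16 and 9, and 25 and 32 in fetal liver. The olfactory receptor group of chromosome 1 had 16 and 9, and 26 and 33, and spans the same region as the Ifi200 genes. An olfactory receptor group of 3 genes on chromosome 14 had 10 and 6, and 1 and 3 in fetal liver. The other group of that chromosome, of 37 genes, was not among the 8, with 42 and 39, and 40 and 47 in fetal liver. Syndig1l had 16 and 9, and 5 and 7 in fetal liver, and Tedc1 had 14 and 7, and 3 and 4. Galnt14 had 16 and 2, and 4 and 5 in fetal liver. Fbxl17 turned the other way, with 2 and 13 in A-MuLV cells and 4 and 3 in fetal liver. In the last 5 of the 8 the fetal liver counts differ by 1 or 2 peaks.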

How the results depend on the processing

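With 1 library per form, limits are those of the peak lists: unknown depth, a floor of weak peaks and the length of the lists. No paired analysis was possible because each group has 1 library and no result comes from a test. Overlap of 50% of the shorter peak left the counts of one-sided peaks within 1.5 times and gave 16.88% of wt-only peaks at EBF1 wt. Counting a peak within 1 kb as shared gave 5785 wt-only peaks, 26.64% at EBF1 wt and 75.3% on the wt side in fetal liver. A −log10 q of at least 5 gave 4529 dC-only peaks, 25.95%, 75.17% and 105 kappa peaks. With 10000 peaks per list there were 4167 wt-only and 4049 dC-only peaks, 34.68%, 84.32% and 61 kappa peaks. With 10000 peaks of 1 list against the whole other list there were 1727 wt-only and 1577 dC-only peaks, 53.56%, 90.02%, 57 kappa peaks and 9 B-lineage transcription factor genes with a wt-only peak. The share of dC-only peaks at EBF1 wt was 4.95%, 7.93% and 4.63% under the last 3 settings, against 2.64%, and the fetal liver split of wt-only peaks without EBF1 stood at 56.1% (q), 59.8% (10000 per list) and 60.1% (1 kb), against 51.4%. These settings keep fewer or stronger peaks by construction. Leaving out the kappa locus and extending genes to 50 kb moved none of the values listed here past 1.5 times or out of their interval. Across the planned settings the share of wt-only peaks on the wt side at EBF1 wt stayed at 94.96% to 96.92%, and that of all dC-only peaks at 20.02% to 23.28%. Il7r kept 1 wt-only peak, the B3gnt2 run 10 dC-only peaks and the Ccl run 14 with 10000 peaks per list. The other form had 0 in these intervals already in the full lists, so a shorter list could only give 0 there.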

Other observations

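The Klr receptor cluster, with 39 wt-only peaks in A-MuLV cells, had Brg1 peaks in every fetal liver list, from 40 with the empty vector to 77 with dC. Of the 65 clusters, 38 were groups of olfactory receptor genes, 1396 genes in all, and their intervals held 72 wt-only, 63 dC-only and 93 shared peaks. These intervals also enclose genes of other families, and many of them held no one-sided peak. Whether the peaks lie at olfactory receptor genes was not examined.

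EBF1 peaks with no A-MuLV Brg1 peak numbered 1509 with wt and 4653 with dC. Their median folds were 7.58 and 7.63, against 9.67 for EBF1 wt peaks at wt-only Brg1 peaks and 9.02 for EBF1 dC peaks at dC-only Brg1 peaks. The Y chromosome had 17 wt peaks, of which 4 were wt-only, and 29 dC peaks, of which 17 were dC-only. No cause was examined for these values.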
